A study of Mus musculus with 36 samples.

Results

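The GABA-A receptor is a chloride channel made of 5 subunits that opens when it binds GABA, the main inhibitory transmitter of the adult brain. The subunits come from a family of related genes. The 7 genes described here are Gabra3, Gabra4 and Gabra5, which encode alpha subunits, Gabrb1 and Gabrb2, which encode beta subunits, and Gabrg1 and Gabrg3, which encode gamma subunits. They were chosen by gene symbol and are 7 of the 18 GABA-A and GABA-rho subunit genes among the 16614 genes of the count table. GABA binds between an alpha and a beta subunit, benzodiazepines bind between an alpha and a gamma subunit, and the choice of alpha subunit sets much of the channel's pharmacology and place in the neuron. In newborn rodents neurons hold much chloride, so that GABA can depolarise them, and the alpha5 and alpha3 subunits are prominent before the alpha1 subunit takes over.

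The study asked whether FMRP, the RNA-binding protein encoded by Fmr1, sets where ribosomes stall on the mRNAs of neuronal RNA granules. Ribosome-protected fragments (RPFs) were sequenced from the pellet of a sucrose gradient, taken as enriched in RNA granules, and from fraction 5/6. Fraction 5/6 holds ribosome clusters that did not pellet, and RNA was sequenced from whole brain. According to the paper it is not clear that the pellet holds only ribosomes of RNA granules. Ribophorin, a marker of the rough endoplasmic reticulum, was seen in the pellet and not in fraction 5/6. The authors' earlier work had found mRNAs of secretory proteins enriched in the pellet over fraction 5/6. The mice were C57BL/6 wild type (WT) or FMR1 KO, 5 days old, and each preparation pooled 10 brains, so that a library is a pool and not a mouse. A standard nuclease preparation in 10 mM MgCl2 and a low nuclease preparation in 2.5 mM MgCl2 gave 12 groups of 3 libraries, 36 in all. Nothing in the labels ties the 3 libraries of a group to separate days or litters beyond a replicate number, so p-values measure the spread between these preparations. By the paper's methods, the 3 RPF replicates of a condition were given different linkers and then pooled before reverse transcription. Differences between RPF groups therefore cannot be told apart from differences between such pools, which the p-values leave out. The whole brain was used, and the neuronal markers Snap25, Tubb3, Rbfox3, Map2 and Stmn2 were counted in every library. So were the markers of astrocytes, the oligodendrocyte lineage, microglia, endothelium and blood. Fewer cells that express a gene cannot be told apart from less RNA per cell.

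Between 36.7% and 63.4% of the reads counted in standard RPF libraries fell on Cdk8, which was left out of all totals. What remained was 4284209 to 21274803 counts per standard RPF library and 112240104 to 147207607 per standard RNA library. Levels are CPM of that remainder, that is, counts scaled to a common library total. Fmr1 checked the genotype labels: its RNA stood at 64.8 ± 6.19 CPM in WT libraries and at 17.1 ± 0.912 CPM in FMR1 KO libraries (SD, n = 3 each), and the standard pellet held 66.5 ± 1.71 CPM and 4.84 ± 0.0769 CPM. One library goes against its label. The library labelled WT fraction 5/6 replicate 3 had 3.17 CPM of Fmr1, where the other WT libraries of that group had 100 and 68.6 CPM and the FMR1 KO libraries 5.98 to 10.7 CPM, and several values of the 7 genes are also given without it. In 3 low nuclease RNA libraries few genes held most counts (up to 85.0% in 10 genes), and CPM of those libraries are low for every gene described here.

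Gabra3 (ENSMUSG00000031343) lies on chromosome X from 72432681 to 72656848 on the minus strand of GRCm38. Gabrg1 (ENSMUSG00000001260, 70751047 to 70842617, minus), Gabra4 (ENSMUSG00000029211, 71569749 to 71658308, minus) and Gabrb1 (ENSMUSG00000029212, 71658113 to 72149037, plus) lie on chromosome 5. The gene models of Gabra4 and Gabrb1 overlap head to head by 196 bases, and whether the counting used strand is not given in the sources used here. Gabrg3 (ENSMUSG00000055026, 56716465 to 57387188, minus) and Gabra5 (ENSMUSG00000055078, 57407672 to 57510059, minus) are neighbours on chromosome 7, and Gabrb2 (ENSMUSG00000007653) lies on chromosome 11 from 42419757 to 42629028 on the plus strand. Their mRNAs differ in how much is coding. Coding sequence made up 46.7% of the exonic length of Gabra5, 40.7% of Gabra3, 28.5% of Gabra4, 24.2% of Gabrb2, 17.7% of Gabrg1, 13.1% of Gabrg3 and 10.3% of Gabrb1, where the median over 16561 protein-coding genes was 37.2%. RPFs come from coding sequence while RNA-seq reads cover the whole transcript, so this share enters every ratio of RPFs to RNA.

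The deposited peak lists name positions on transcripts with a height of RPF coverage, for the 12 standard RPF libraries. Among the 11389 to 36435 peaks of a library, only the beta subunit genes Gabrb1 and Gabrb2 had any, and the other 5 genes had none. Of the 13343 genes with a mean of at least 10 counts over these libraries, the 7 among them, 46.6% had a peak in any library. The 10 member peaks came from 3 pellet libraries, where pellet libraries held 57.1% of all peaks, and 3 of the 10 are listed with a height of 0. The sequences shown are the stretches where a WT and an FMR1 KO pellet library had overlapping peaks, with 10 bases on either side of the joined peaks. Capitals mark the bases that both peaks cover, read 5′ to 3′ from the transcript, from GENCODE M21 on GRCm38, plus strand.
Gabrb1, exon 8, chr5:72122126-72122184: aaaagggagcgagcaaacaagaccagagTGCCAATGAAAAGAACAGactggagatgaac
Gabrb2, across the junction of exons 9 and 10, chr11:42597767-42597785 and chr11:42626544-42626571: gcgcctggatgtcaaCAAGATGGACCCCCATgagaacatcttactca

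In Gabrb1 the shared 18 bases lie in codons 347 to 353 of 474, and the peaks came from WT pellet replicate 1 (height 12) and FMR1 KO pellet replicate 1 (height 14), with middles 10.5 nt apart. In Gabrb2 the shared 16 bases lie in codons 358 to 363 of 474, and the peaks came from WT pellet replicate 3 and FMR1 KO pellet replicate 1, both of height 9, with middles 5.5 nt apart. With a window of 6 nt for calling peaks the same, the Gabrb2 pair matched and the Gabrb1 pair did not. No peak of either gene recurred between libraries of a single genotype. The other Gabrb1 peaks of height above 0 lay in codons 390 to 397 in WT (height 7) and in codons 144 to 151 and 278 to 286 in FMR1 KO (heights 6 and 11). The median height over all peaks was 15 in both replicate 1 pellet libraries and 14 in WT pellet replicate 3.

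The level of each gene in every library is shown in the plot of CPM by fraction. In standard RNA, which was the most deeply sequenced, Gabra5 was the most abundant of the 7 per length. Its RNA had 26.4 ± 3.55 CPM per kb of exon in WT (SD, n = 3), and 26.7 ± 1.38 in FMR1 KO. The next 4 genes lay close together in WT, with 5.50 ± 1.02 for Gabra3, 4.35 ± 0.535 for Gabrb2, 3.93 ± 0.468 for Gabrb1 and 3.60 ± 0.517 for Gabra4, and each differed from its neighbour in that order by less than the sum of their SDs. Gabrg3 (1.75 ± 0.715) and Gabrg1 (0.788 ± 0.158) were the least abundant. The order was the same in FMR1 KO RNA.

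**Figure D1:**
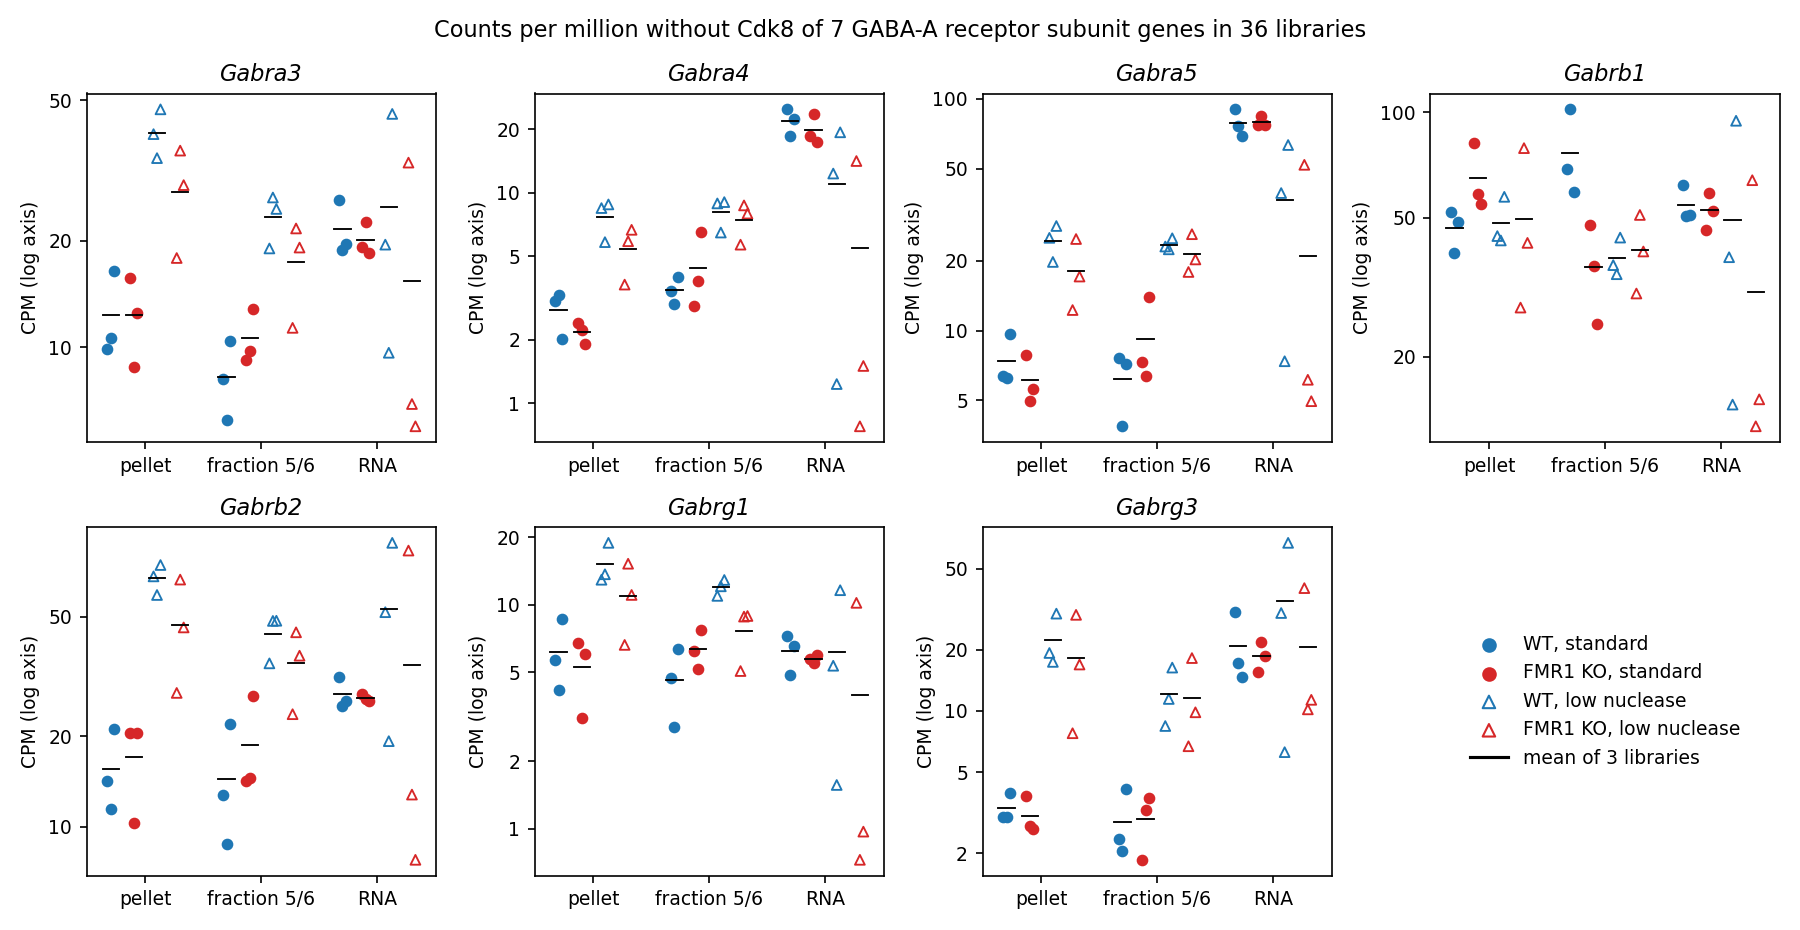
CPM without Cdk8 on a log axis for each of the 7 genes, in the pellet, fraction 5/6 and RNA, with points for single libraries, colours for genotype, filled circles for the standard and open triangles for the low nuclease preparation, and lines for the mean of 3. Gabra4, Gabra5 and Gabrg3 are far lower in standard RPFs than in standard RNA, and Gabrb1 is not.

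The order in RPFs was different. In the standard WT pellet Gabrb1 led with 32.9 ± 4.42 CPM per kb of coding sequence, followed by Gabrb2 (10.2 ± 3.25), Gabra3 (7.70 ± 2.25), Gabra5 (5.33 ± 1.40), Gabrg1 (4.41 ± 1.63), Gabrg3 (2.12 ± 0.341) and Gabra4 (1.60 ± 0.388). From Gabrb2 down, each gene differed from the next by less than the sum of their SDs, except Gabrg1 from Gabrg3. The low nuclease WT pellet gave 43.7 ± 5.00 for Gabrb2, 33.9 ± 5.58 for Gabrb1, 25.4 ± 4.02 for Gabra3 and 17.5 ± 3.09 for Gabra5. Gabra4, at 4.43 ± 0.936, was lowest in both preparations. The RPF values rest on few reads: in the standard libraries Gabra4 had 24 to 65 counts, Gabrg3 16 to 64, Gabra5 34 to 135 and Gabrg1 25 to 120, while Gabrb1 had 106 to 1264.

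Occupancy is the ratio of pellet RPFs to RNA. The fit scaled libraries by the trimmed mean of M-values (TMM), which put the median gene near 0 (-0.10 in WT and -0.07 in FMR1 KO on the log2 scale), while scaling by library size alone put it at -1.26 and -1.17. Changes are therefore given relative to the median gene, a value which moved by at most 0.027 in WT and 0.030 in FMR1 KO between the scalings for any of the 7 genes. By library size alone, 67.6% of genes passed as lower and 8.74% as higher in WT, and 62% and 7.93% in FMR1 KO. Under that scaling Gabra4, Gabra5 and Gabrg3 were again lower in both genotypes, Gabra3 and Gabrb2 passed as lower too, and none of the 7 passed as higher. The 3 genes Gabra4, Gabra5 and Gabrg3 had fewer pellet RPFs than their RNA would give at the median, in both genotypes. Gabrb1 and Gabrg1 had more. In WT, 3 of the 7 genes passed the threshold of an adjusted p of 0.05 as lower and 2 as higher, where 34.2% of the 16200 genes tested passed as lower and 31.1% as higher. In FMR1 KO, 3 passed as lower and 3 as higher, with 35.2% and 31.8% of 16204 genes. With most genes called one way or the other, these counts are near the background and say little of the genes as a group. Their sizes are what differ: the median over the 7 was 0.35 in WT and 0.38 in FMR1 KO as fitted, and the single values ran from -2.25 to 1.16 and from -2.59 to 1.43.

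Gabra5 encodes the alpha5 subunit, found mostly outside synapses and abundant in hippocampus. Its CPM were 6.35, 6.22 and 9.65 in the standard WT pellet and 90.0, 76.3 and 69.3 in WT RNA. In FMR1 KO they were 7.85, 4.95 and 5.61 in the pellet and 76.9, 84.2 and 77.4 in RNA. No pellet library came near any RNA library. Relative to the median gene, Gabra5 was 4.41-fold lower in the WT pellet than in RNA, at a log2 fold change of -2.25 ± 0.240 as fitted (standard error, adjusted p = 0.000129), with 9.32% of all genes lower still. In FMR1 KO it was 5.74-fold lower (-2.59 ± 0.160, adjusted p = 1.95e-05).

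Gabra4, whose product joins the delta subunit in extrasynaptic receptors of the thalamus and dentate gyrus, had 3.06, 3.27 and 2.01 CPM in the WT pellet and 24.8, 18.6 and 22.4 CPM in WT RNA. The FMR1 KO pellet held 2.40, 2.23 and 1.92 CPM and its RNA 18.7, 23.5 and 17.4 CPM. Again the groups lay apart. It was 3.28-fold lower than the median gene's ratio in WT (-1.82 ± 0.195, adjusted p = 0.000131) and 3.99-fold lower in FMR1 KO (-2.06 ± 0.244, adjusted p = 0.000297). Gabrg3, a gamma subunit of low abundance in most of the brain, had 3.01, 3.03 and 3.94 CPM in the WT pellet and 30.6, 17.3 and 14.7 CPM in WT RNA. In FMR1 KO the pellet had 3.83, 2.71 and 2.64 CPM and RNA 15.5, 21.7 and 18.7 CPM. It was 2.63-fold and 2.68-fold lower than the median ratio (-1.50 ± 0.331 in WT, adjusted p = 0.00525, and -1.49 ± 0.228 in FMR1 KO, adjusted p = 0.00104).

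**Figure D2:**
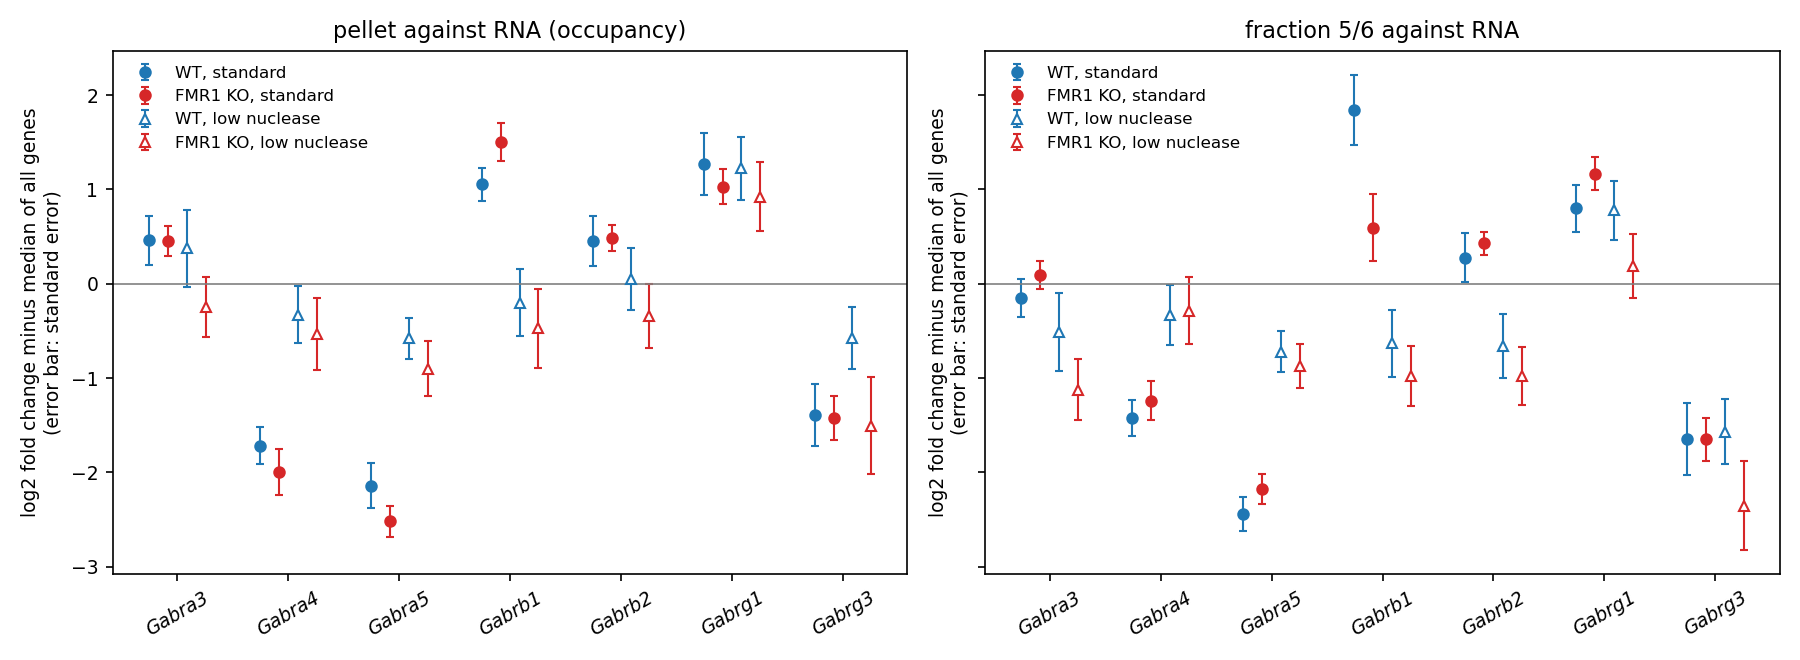
Log2 fold change of RPFs against RNA minus the median of all genes, with standard errors, for the pellet (left) and fraction 5/6 (right), by genotype and preparation. In both standard fractions Gabra4, Gabra5 and Gabrg3 lie below 0 in both genotypes, and the low nuclease values of Gabra4 and Gabra5 lie nearer 0.

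The other 4 genes lay above the median when all libraries were in the fit. Gabrb1 had 51.8, 39.7 and 48.7 CPM in the WT pellet and 61.8, 50.4 and 50.9 CPM in WT RNA, so that the ranges overlapped, while most genes had lower CPM in the pellet. Relative to the median gene it was 2.07-fold higher in the WT pellet (0.95 ± 0.177 as fitted, adjusted p = 0.0023) and 2.83-fold higher in FMR1 KO (1.43 ± 0.205, adjusted p = 0.000751). Gabrg1, a gamma subunit found in few brain regions and in some glia, had 5.64, 4.17 and 8.64 CPM in the WT pellet and 7.26, 4.83 and 6.52 CPM in RNA. It was 2.41-fold higher in WT (1.16 ± 0.324, adjusted p = 0.015) and 2.04-fold higher in FMR1 KO (0.96 ± 0.182, adjusted p = 0.00292), and without replicate 3 of both groups it did not pass in WT (0.81, adjusted p = 0.0535). Gabrb2, the usual partner of the alpha1 subunit in adult synapses, passed in FMR1 KO (0.42 ± 0.142, adjusted p = 0.0361) and not in WT (0.35 ± 0.265, adjusted p = 0.277), and without replicate 1 or without replicate 3 it did not pass in FMR1 KO either (0.33 and 0.35, adjusted p = 0.214 and 0.211). Gabra3, the alpha subunit typical of monoamine neurons and of early cortex, did not pass in either genotype (0.35 ± 0.258 and 0.38 ± 0.162, adjusted p = 0.258 and 0.0719), though in FMR1 KO it passed without replicate 2 (0.56, adjusted p = 0.0242) and by DESeq2 (0.45, adjusted p = 0.0264). In WT, without replicate 3 of both groups, neither gene stayed above 0, at -0.043 for Gabrb2 and -0.054 for Gabra3 (adjusted p = 0.865 and 0.819).

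Lengths were then entered in the fit, coding length for RPFs and exonic length for RNA. Gabra5 and Gabra4 stayed below the median gene, at -2.57 and -1.43 relative to it in WT and -2.96 and -1.72 in FMR1 KO. Gabrg3, whose transcript is mostly untranslated, came to 0.011 in WT and -0.034 in FMR1 KO and no longer passed (adjusted p = 0.99 and 0.997). The values of the genes with long untranslated stretches moved up, to 2.81 and 3.25 for Gabrb1 and 2.24 and 1.99 for Gabrg1, and Gabrb2 passed in both genotypes (0.98 and 0.99 relative to the median, adjusted p = 0.0146 and 0.000668). With lengths, 3 of the 7 passed as higher and 2 as lower in each genotype, where 33.9% and 31.6% of genes did in WT and 34.6% and 32.2% in FMR1 KO. The exonic length is that of all annotated exons of the gene, and which of the transcripts the brain makes was not measured.

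**Figure D3:**
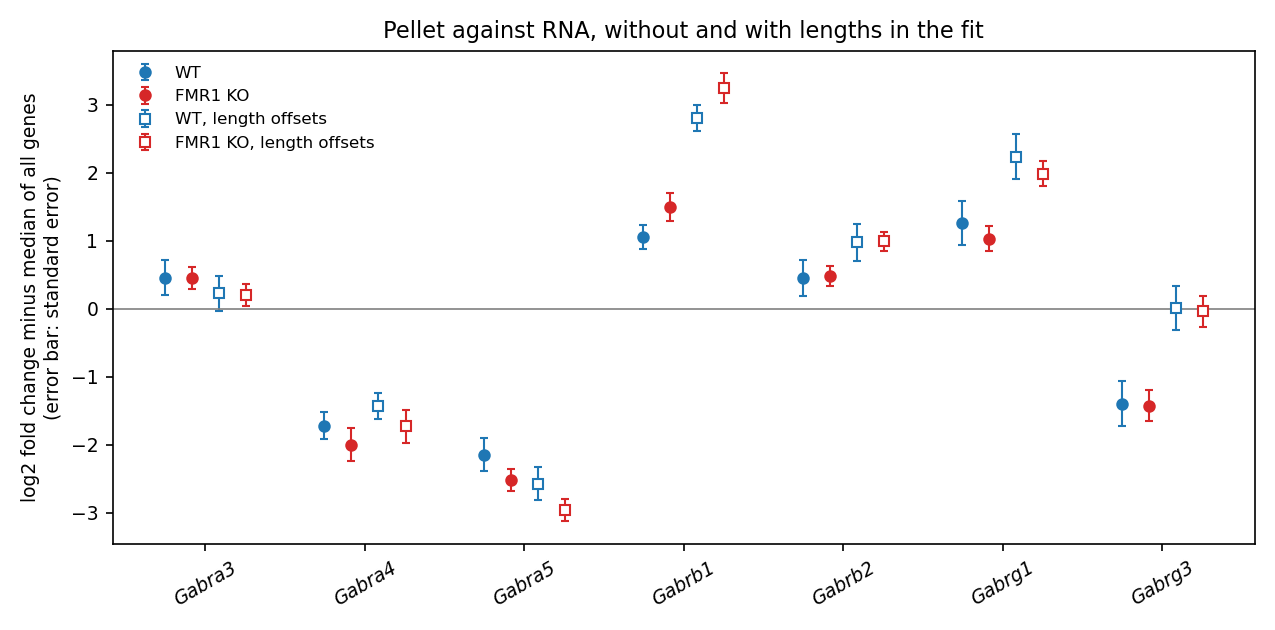
Log2 fold change of standard pellet RPFs against RNA minus the median of all genes, with standard errors, fitted without (circles) and with (squares) coding and exonic lengths, by genotype. With lengths Gabrg3 moves to 0 and Gabrb1 and Gabrg1 move up, while Gabra4 and Gabra5 stay below -1.

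The ratio of fraction 5/6 to RNA gave a like order. Relative to the median gene, Gabra5 stood at -2.45 in WT and -2.17 in FMR1 KO, Gabrg3 at -1.65 in both, and Gabra4 at -1.42 and -1.24, and all 3 passed as lower in both genotypes, where 27.6% of 16233 genes did in WT and 33.1% of 16191 in FMR1 KO. In WT 2 genes passed as higher (background 28.3%), Gabrb1 at 1.86 ± 0.373 as fitted and Gabrg1 at 0.81 ± 0.253. When the WT fraction 5/6 library with low Fmr1 was left out, Gabrb1 was at 2.01 and passed (adjusted p = 0.00191), Gabrg1 was at 0.54 and did not (adjusted p = 0.098), Gabrb2 was at -0.11 in place of 0.29, with no call in either fit, and Gabra4 and Gabra5 passed as lower (-1.52 and -2.53), as did Gabrg3, all as fitted. Gabrg1 also did not pass without any one of the replicate numbers (0.61 to 0.88, adjusted p = 0.0817 to 0.138). In FMR1 KO the 2 that passed as higher (background 29.7%) were Gabrg1, at 1.06 ± 0.174, and Gabrb2, at 0.33 ± 0.123 with an adjusted p of 0.0491, which did not pass without replicate 1 (0.35, adjusted p = 0.185) or replicate 3 (0.20, adjusted p = 0.298). Gabrb1, at 0.49 ± 0.355, did not pass (adjusted p = 0.258), with 0.80 without replicate 3, which passed (adjusted p = 0.0242), and -0.0079 without replicate 1 (adjusted p = 0.988). With lengths in the fit Gabrg3 did not pass in fraction 5/6 of either genotype (-0.15 in WT and -0.26 in FMR1 KO, adjusted p = 0.762 and 0.346). Gabrb2 then passed as higher in both (0.90 and 0.94), as did Gabrb1 in FMR1 KO (2.34, adjusted p = 0.000885), where 32.1% of genes passed as higher in WT and 34.4% in FMR1 KO, and 25.8% and 32.2% as lower. By library size alone, 59.2% of genes passed as lower and 5.72% as higher in WT, and 55.8% and 8.1% in FMR1 KO, and none of the 7 passed as higher: Gabrb1 was at 0.50 in WT (adjusted p = 0.147) and Gabrg1 at 0.12 in FMR1 KO (adjusted p = 0.707). Under that scaling Gabra4, Gabra5 and Gabrg3 passed as lower in both genotypes, as did Gabra3 (-1.38 and -0.94) and, in WT, Gabrb2 (-0.93). The median gene was then at -1.22 in WT and -1.03 in FMR1 KO, so that Gabrb2 in WT and Gabra3 in FMR1 KO lay above it. The occupancies of the pellet and of fraction 5/6 share their RNA libraries.

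Ratios to RNA in the low nuclease preparation rest on 6 RNA libraries of which 3 were held by few genes. In the WT pellet only Gabrg1 passed, as higher (1.20 ± 0.332, adjusted p = 0.0184), where 26.6% of genes did and 25.5% as lower. In the FMR1 KO pellet only Gabra5 passed, as lower (-0.94 ± 0.291, adjusted p = 0.0481), where 12.8% of genes did and 16.1% as higher. In WT fraction 5/6, Gabra5 (-0.76 ± 0.216) and Gabrg3 (-1.61 ± 0.341) passed as lower, with a background of 29.6% lower and 27.6% higher. In FMR1 KO fraction 5/6, 5 genes passed as lower, from -0.87 for Gabra5 to -2.35 for Gabrg3, with a background of 17% lower and 17.2% higher. Gabra4, Gabra5 and Gabrg3 were below the median gene in every low nuclease comparison with RNA, whether or not they passed, and Gabrb1 was below it too, at -0.22 ± 0.354 as fitted in the WT pellet (adjusted p = 0.62), opposite in sign to the standard preparation.

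Gabrb1 stood apart from the other 6 genes. It made up at most 24.3% of the counts of the 7 genes in the 6 standard RNA libraries, with a median of 24.0%, and 20.3% to 30.7% in the 12 low nuclease RPF libraries. In the 12 standard RPF libraries it made up 25.5% to 79.3%, with a median of 53.0%. The other 6 genes summed to between 70.3 and 207 CPM in low nuclease RPFs and to between 26.7 and 72.1 CPM in standard RPFs. Gabrb1 itself had 27.6 to 79.0 CPM in the former and 24.7 to 102.1 CPM in the latter. Its share moved with that of Cdk8. The standard RPF library with the least Cdk8, FMR1 KO fraction 5/6 replicate 3 at 36.7% of counts, had the lowest Gabrb1 share (25.5%), and the libraries with the most Cdk8, FMR1 KO pellet replicate 2 (63.4%) and WT fraction 5/6 replicate 2 (59.2%), had the highest (64.6% and 79.3%). The part of Cdk8 in the Gabrb1 values was not tested.

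**Figure D4:**
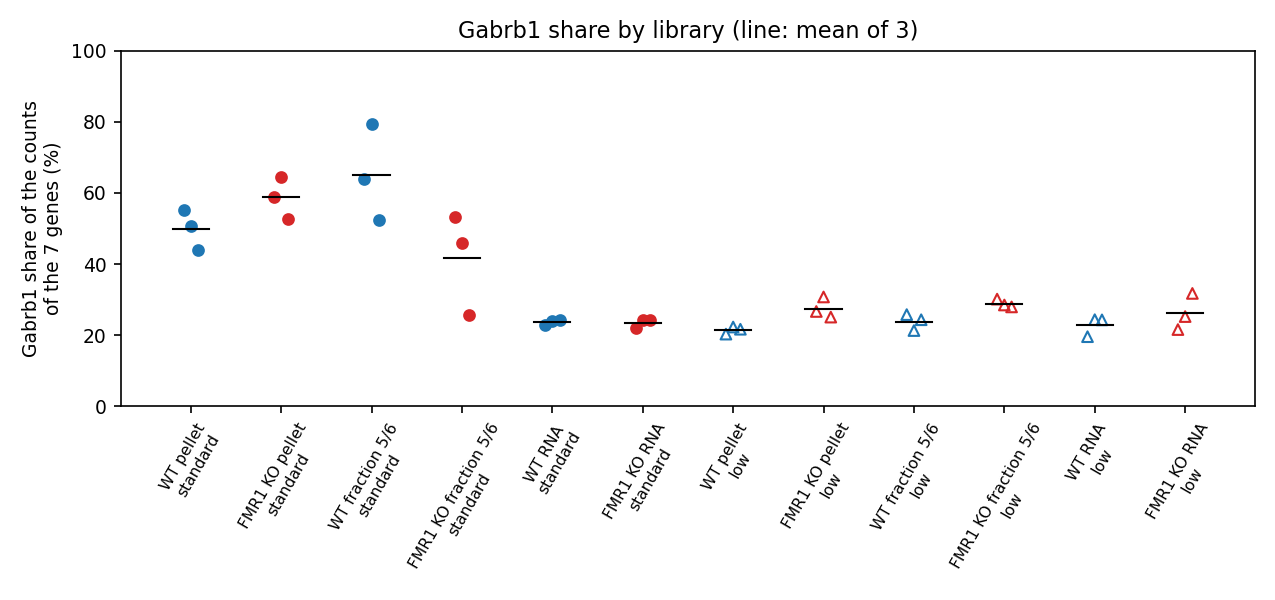
Share of Gabrb1 in the counts of the 7 genes, in percent, for each of the 36 libraries, with lines for the mean of 3. All 12 standard RPF libraries lie above 25%, up to 79.3%, while the standard RNA libraries lie at or below 24.3%.

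Peak heights were set beside those of the genes counted at least as often in the same library, which are genes with as many or more reads. With no upper limit on their counts, that choice favours taller peaks among them. The shares below therefore do not show that the peaks of Gabrb1 or Gabrb2 are low for their counts. In FMR1 KO pellet replicate 1, Gabrb1 had 1264 counts and a tallest peak of 14. Of the 1831 other genes counted at least as often in that library, 1478 had a peak, with a median tallest height of 34, and 70.8% of the 1831 had a taller one than Gabrb1. In WT pellet replicate 1 it had 1101 counts and a tallest peak of 12, and 70.2% of 2673 genes had a taller one. The tallest Gabrb2 peak, of 9, was exceeded in 62.8% of 5150 genes in FMR1 KO pellet replicate 1 and in 51.8% of 4707 genes in WT pellet replicate 3. Gene-level counts do not say where on the transcript the reads lie.

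Enrichment is the ratio of the pellet to fraction 5/6, both RPFs, in which transcript length cancels. None of the 7 genes passed in the standard preparation in either genotype by edgeR's quasi-likelihood test with no replicate term, nor by DESeq2. At an unadjusted p under 0.05 the counts were 0 in WT, where 6.24% of all genes were, and 2 in FMR1 KO, where 30.2% were, so that 2 of 7 is near the background. The background was low in WT, with 0.0152% of 13135 genes passing as higher and 0.00761% as lower, and when the WT fraction 5/6 library with low Fmr1 was left out, 7.71% passed as higher and 1.76% as lower, but still none of the 7, whose values were then -1.03 for Gabrb1, -0.26 for Gabra4 and 0.37 to 0.73 for the others, among them 0.52 for Gabrb2 in place of 0.17 and 0.55 for Gabrg3 in place of 0.25. By library size alone the shares were 0.0228% and 0.0381%. In FMR1 KO 10.1% of 13333 genes passed as higher and 1.39% as lower, and by library size alone 1.1% and 0.188%. Gabrb1 was at -0.80 ± 0.395 in WT and at 1.11 ± 0.401 in FMR1 KO (adjusted p = 0.64 and 0.124), and without replicate 2 of both WT groups the WT value was -0.089. Of the other genes Gabra3 had the highest values, at 0.61 ± 0.289 in WT (adjusted p = 0.64) and 0.56 ± 0.164 in FMR1 KO (adjusted p = 0.0778). Its CPM were 9.87, 10.6 and 16.4 in the WT pellet and 8.12, 6.24 and 10.4 in WT fraction 5/6, and the groups overlapped.

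In the low nuclease preparation, which had 22378936 to 60377525 counts per RPF library without Cdk8, 3 of the 7 genes passed as enriched in the WT pellet over fraction 5/6, where 14.3% of 15586 genes passed as higher, and none as lower, where 8.58% did. Gabra3 had 40.1, 34.3 and 47.2 CPM in the pellet and 19.1, 26.5 and 24.6 in fraction 5/6, which do not overlap, and a log2 fold change of 0.91 ± 0.155 (adjusted p = 0.0157). Gabrb2 had 68.1, 59.1 and 74.3 CPM against 35.0, 48.4 and 48.5, also apart, and 0.73 ± 0.138 (adjusted p = 0.019). Gabrg3 had 19.3, 17.4 and 30.1 CPM against 8.43, 11.4 and 16.3, again without overlap, and 1.01 ± 0.286 (adjusted p = 0.0497). Same-numbered libraries of these groups deviated together (every correlation above 0.1), and a fit that blocked on that number called Gabrb1 too (0.44 ± 0.103, adjusted p = 0.0413), where 18.9% of genes passed as higher and 13.4% as lower. Gabrg1 (0.46 ± 0.176), Gabra5 (0.16 ± 0.133) and Gabra4 (0.026 ± 0.199) did not pass. In FMR1 KO the low nuclease values were 0.85 ± 0.298 for Gabra3, 0.61 ± 0.331 for Gabrb2 and 0.83 ± 0.528 for Gabrg3 and none of the 7 passed, where 9.31% of genes passed as higher and 10.7% as lower. The genotypes were not told apart by the test of the difference: it gave -0.034 ± 0.361 for Gabra3, -0.10 ± 0.387 for Gabrb2 and -0.16 ± 0.653 for Gabrg3, with adjusted p of 0.987, 0.957 and 0.965, where 0.0188% of genes passed.

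**Figure D5:**
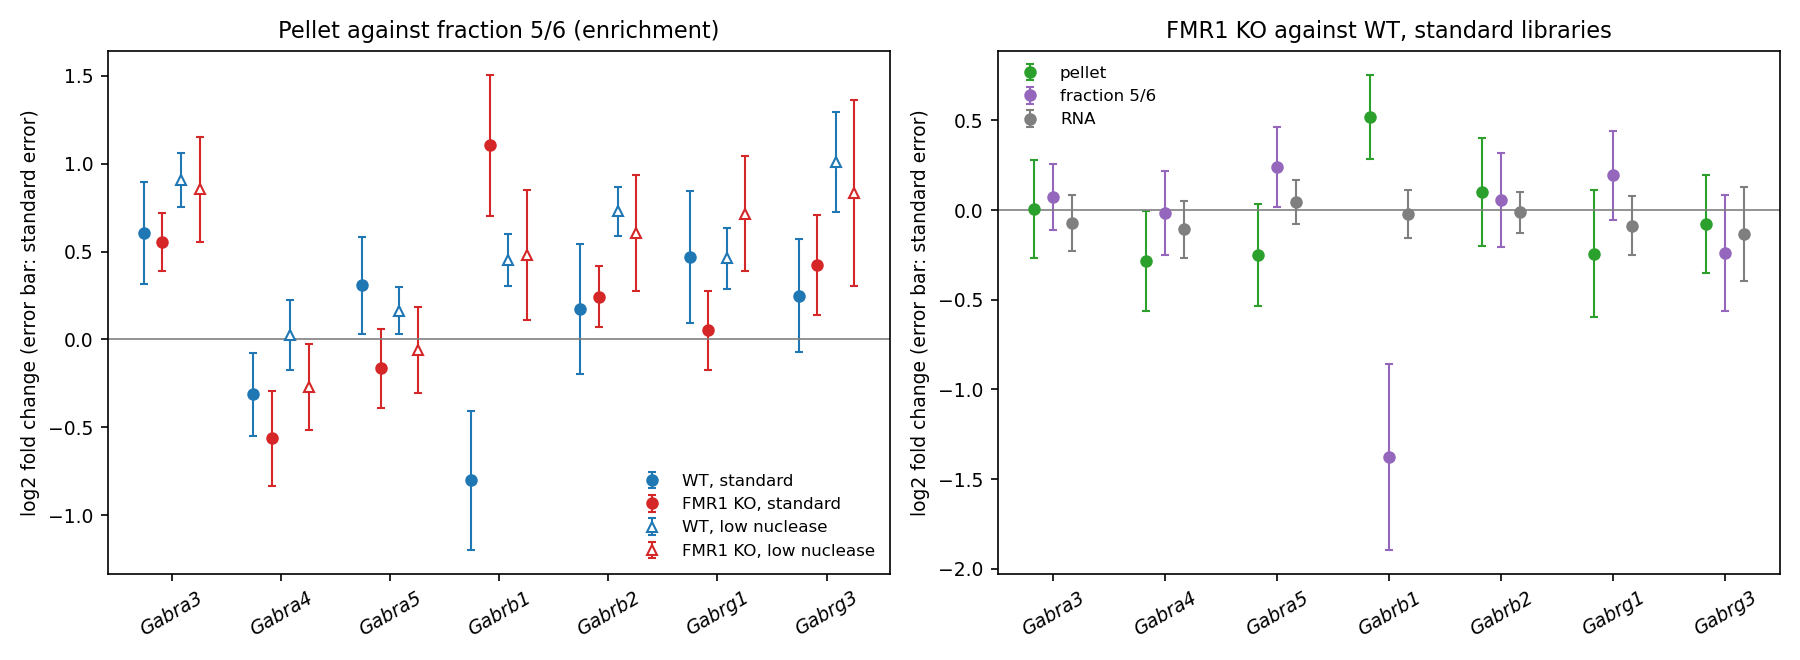
Log2 fold changes with standard errors: left, pellet against fraction 5/6 by genotype and preparation, and right, FMR1 KO against WT in the standard pellet, fraction 5/6 and RNA. Gabrb1 lies on opposite sides of 0 in the standard WT and FMR1 KO enrichment and is the only one of the 7 whose genotype difference exceeds 1 in size.

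FMR1 KO was compared with WT in each kind of standard library. None of the 7 genes passed in RNA (background 0.0735% of 16333 genes), in the pellet (0.0152% of 13171) or in fraction 5/6 (0% of 13108), by edgeR or by DESeq2. At an unadjusted p under 0.05 there were 0, 0 and 1, where 2.59%, 5.34% and 4.56% of all genes were. In RNA the log2 fold changes ran from -0.13 for Gabrg3 to 0.047 for Gabra5, with standard errors of 0.116 to 0.262. Leaving out each replicate number in turn gave -0.40 to 0.37 for Gabrg3 and -0.038 to 0.18 for Gabra5, the sign of each of the 7 turned in at least 1 of these fits, and the low nuclease RNA gave 0.82 for Gabrg3 (adjusted p = 0.858). In the pellet the values ran from -0.28 for Gabra4 to 0.52 for Gabrb1, with standard errors of 0.236 to 0.354. Differences of a size that these errors span could not be detected with 3 libraries per group. In the pellet only Gabra4 and Gabrb1 kept their sign whichever replicate number was left out. The tests of whether occupancy or enrichment differed between genotypes called none of the 7 either, where 0.0669% of 16437 and 0% of 13749 genes passed. When the WT fraction 5/6 library with low Fmr1 was left out, the genotype difference in enrichment of Gabrb2 was -0.28 in place of 0.039 and that of Gabrg3 -0.13 in place of 0.15, and those in fraction 5/6 were 0.014 for Gabra4 in place of -0.014 and 0.042 for Gabrg3 in place of -0.24, again with no call. The low nuclease libraries called none of the 7 between genotypes either, with backgrounds of 0.0197% in the pellet, 0.0445% in fraction 5/6, 0% in RNA and 0.0187% for occupancy.

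Gabrb1 gave the one unadjusted call in fraction 5/6. Its CPM there were 68.8, 102.1 and 59.3 in WT and 47.6, 36.3 and 24.7 in FMR1 KO, so that the groups did not overlap, and the log2 fold change was -1.38 ± 0.519 (unadjusted p = 0.035, adjusted p = 0.833). Leaving out the WT fraction 5/6 library with low Fmr1 gave -1.61 ± 0.544 (adjusted p = 0.743). In the low nuclease fraction 5/6 it was 0.059 ± 0.181. In the pellet its CPM were 51.8, 39.7 and 48.7 in WT and 82.0, 58.6 and 54.9 in FMR1 KO, again without overlap and in the other direction (0.52 ± 0.236, adjusted p = 0.863), and in the low nuclease pellet the value was 0.12 ± 0.357.

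Other genes of GABA signalling gave the setting, listed together with 4 glycine receptor genes. Of the 44 genes of this list in the table, 43 were tested for WT occupancy, and 18 passed as higher and 12 as lower. In FMR1 KO 42 were tested, with 18 higher and 14 lower. The glycine receptor genes gave 1 of the higher ones in WT, and 2 of the higher and 1 of the lower in FMR1 KO. Over all genes 31.1% passed as higher and 34.2% as lower in WT, and 31.8% and 35.2% in FMR1 KO. By library size scaling the split was 5 higher and 20 lower in WT, where 8.74% and 67.6% of all genes passed, and 3 and 21 in FMR1 KO, where 7.93% and 62% did, so only the genes that passed one way under both scalings are described by a direction. The medians over the list were 0.51 and 0.25 as fitted, beside -0.10 and -0.07 over all genes.

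Under both scalings, 12 genes were lower and 5 higher in WT, and 14 lower and 3 higher in FMR1 KO. The share of all genes that passed one way under both was not computed, so these counts are not read as a result about the list. It can be at most the smaller share under either scaling, 34.2% lower and 8.74% higher in WT, and 35.2% and 7.93% in FMR1 KO. The lower ones held the GABA-B receptor genes Gabbr1 (-0.91 ± 0.278 and -0.97 ± 0.112 in WT and FMR1 KO, TMM scale) and Gabbr2, and of the postsynaptic scaffold Nlgn2, the neuroligin of inhibitory synapses (-1.84 ± 0.195 and -1.97 ± 0.20), Lhfpl4, which holds GABA-A receptors at the synapse (-2.80 ± 0.126 and -2.91 ± 0.167), Shisa7 and Iqsec3. The higher ones in WT held Gphn, the gephyrin of the inhibitory scaffold (2.11 ± 0.125), Gad1, which makes GABA (1.69 ± 0.136), Abat, which breaks it down, Nsf and Gabrp. In FMR1 KO the higher ones held Abat and Nsf, and neither Gphn, Gad1 nor Gabrp was among them. The Gabrp value came from single libraries, with 182 CPM in 1 WT pellet library and under 4 CPM in the others.

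By edgeR's test none of the list passed in WT enrichment or between genotypes in the standard preparation (at an unadjusted p under 0.05 there was 1 in WT enrichment, 1 between genotypes in the pellet, 3 in RNA, 0 in fraction 5/6, 1 for occupancy and 0 for enrichment). When the WT fraction 5/6 library with low Fmr1 was left out, 0 of 38 passed in WT enrichment and 13 were under an unadjusted p of 0.05, where 27.8% of all genes were. In FMR1 KO enrichment 8 of 37 passed as higher and 1 as lower (background 10.1% and 1.39%). That background hangs on single replicates: 1527 genes passed in all, against 133 without replicate 1, 1578 without replicate 2 and 39 without replicate 3. By library size scaling 1 of the list genes passed, Slc12a5, the potassium chloride exporter KCC2 that lowers neuronal chloride as neurons mature, at 2.24 ± 0.210 on the TMM scale (adjusted p = 0.00204).

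By a rule, the 5 protein-coding genes whose log2 CPM were most like the summed 7 over the 18 standard libraries were Clmn (Pearson's r = 0.966), Tmem260 (0.962), Galnt13 (0.961), Pemt (0.961) and Suco (0.957), of 13865 genes compared. The points fall into RNA and RPF libraries, and like the summed 7 these genes had higher CPM in RNA on totals without Cdk8. Clmn had 25.5 CPM in RNA on average, 6.12 in the pellet and 5.52 in fraction 5/6. On TMM library sizes the summed 7 had 131, 167 and 132 CPM in WT pellet, fraction 5/6 and RNA, and 157, 100.5 and 130 in FMR1 KO.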

How the data were processed

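The members and gene lists were chosen with earlier results of these data known. The authors trimmed reads with cutadapt 2.10, removed rRNA and other noncoding reads with Bowtie2 2.3.5, aligned with STAR 2.7.8a to GRCm38 with Ensembl 102, removed duplicates with Picard and SAMtools 1.19.2 and counted with featureCounts 2.2.0. Removing duplicates can lower the counts of strongly covered genes. The deposited table holds raw counts per gene. The peak lists hold, per library, transcript positions and a height in coverage signal as deposited, called where the height reached 4 times the transcript mean per the authors.

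From these, CPM were computed on totals over all genes of the table without Cdk8. For the tests 26 noncoding genes were left out as well. The 27 gene IDs with no match in GENCODE M21 were kept, which left 16587 genes. Main tests were edgeR 4.0.16 quasi-likelihood tests (filterByExpr, TMM, only the groups compared, no covariate) with Benjamini-Hochberg adjustment at 0.05 over all genes tested, in R 4.3.3. The standard error is the log2 fold change over the root of F. All 7 genes passed the filter on low counts in every comparison. The script was tested on simulated data. DESeq2 1.42.0, other scalings, filters, lengths and libraries were alternatives. Named genes were the 7, list genes that passed or led their subgroup, Fmr1 and the 5 most alike. Gabrr2 was not analysed here. The values of a further gene of the list are not reported here.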

Additional observations from a re-analysis of the deposited data

Results flagged for a closer look

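Gabrb1 enrichment lay on opposite sides of 0 in the 2 genotypes of the standard preparation. In WT every pellet library (39.7 to 51.8 CPM) was below every fraction 5/6 library (59.3 to 102.1 CPM), and in FMR1 KO every pellet library (54.9 to 82.0 CPM) was above every fraction 5/6 library (24.7 to 47.6 CPM). The log2 fold changes were -0.80 ± 0.395 and 1.11 ± 0.401, and the difference between them was 1.89 ± 0.628, with an unadjusted p of 0.0127 and an adjusted p of 0.823 from edgeR's quasi-likelihood test, so that it did not pass. Without replicate 2 of the groups compared, the WT value was -0.089, the FMR1 KO value 0.99 and the difference 1.10 (adjusted p = 0.95), and without replicate 1 or 3 the difference was 2.45 and 2.07 (adjusted p = 0.999 and 0.744). Leaving out the WT fraction 5/6 library whose Fmr1 level is near that of FMR1 KO gave 2.13 (adjusted p = 0.642), and in the low nuclease preparation it was 0.051 ± 0.436. The Cdk8 share of counts was 43.7% to 47.0% in the WT pellet, 46.0% to 59.2% in WT fraction 5/6, 46.0% to 63.4% in the FMR1 KO pellet and 36.7% to 52.9% in FMR1 KO fraction 5/6, and its part in the difference was not tested.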

How the results depend on the processing

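Of 840 refits of a single gene's log2 fold change, 700 kept their direction and side of the threshold, 17 gained and 33 lost a call with no change of sign, 73 changed sign with no call in either fit and 17 changed sign with a call in one of them. Scaling by library size alone lowered the median gene's RPF to RNA ratio by 0.92 to 1.23 on the log2 scale, and turned the sign in WT occupancy of Gabra3 (-0.81), Gabrb1 (-0.22), Gabrb2 (-0.83) and Gabrg1 (-0.016), in FMR1 KO occupancy of Gabra3 (-0.70), Gabrb2 (-0.65) and Gabrg1 (-0.11), and in fraction 5/6 against RNA of Gabrb2 (-0.93 in WT, -0.55 in FMR1 KO), Gabrg1 (-0.41 in WT) and, with no call in either fit, Gabrb1 (-0.53 in FMR1 KO). On TMM library sizes the summed CPM of the 7 genes were 131 in WT pellet, 167 in WT fraction 5/6, 132 in WT RNA, 157 in FMR1 KO pellet, 100.5 in FMR1 KO fraction 5/6 and 130 in FMR1 KO RNA, against 94.3, 117 (118 without the library with low Fmr1), 231, 111, 88.4 and 223 on totals without Cdk8. The low nuclease libraries gave 1 call in place of 5 for WT occupancy, 1 in place of 6 for FMR1 KO occupancy, 2 in place of 5 for WT fraction 5/6 against RNA and 3 in place of 0 for WT enrichment, and turned the sign of Gabrb1 (-0.22 and -0.51 in WT and FMR1 KO occupancy, -0.67 and -0.98 in fraction 5/6 against RNA), of Gabrb2 in FMR1 KO (-0.39 and -0.97) and, with no call in either fit, of Gabrb2 in WT fraction 5/6 (-0.70) and Gabra3 in FMR1 KO occupancy (-0.29). The cause was not tested. There, with the replicate block, chosen after seeing the data, WT enrichment had 4 calls and Gabrb1 was at 0.44. In the standard libraries the correlations of same-numbered libraries ran from -0.12 to 0.25, and in no comparison were all 3 above 0.1, so the numbers were not taken to pair them, and in each comparison 0 to 4 of 6 libraries correlated best with their own number. In edgeR's test the replicate block gave 1 call in place of 0 for FMR1 KO enrichment (Gabrb1, 1.22, adjusted p = 0.0394), with 856 genes called in place of 1527. It took away the calls of Gabrb2 in FMR1 KO occupancy (0.40, adjusted p = 0.0648) and FMR1 KO fraction 5/6 against RNA (0.32, adjusted p = 0.103). The call of Gabrg1 in WT fraction 5/6 against RNA was lost too (0.79, adjusted p = 0.0521). Leaving out each replicate number in turn gave 4 to 5 calls for WT occupancy, 5 to 7 for FMR1 KO occupancy, 4 in each case for WT and 4 to 5 for FMR1 KO fraction 5/6 against RNA, and 0 elsewhere. Peaks matched in 0 pairs at a window of 3 nt, 1 at 6 nt and 2 at 12 nt. A minimum peak height of 4 times the library's lowest could not be applied because that lowest height is 0. The standard RPF libraries held few counts of Gabra4 (24 to 65 in each) and of Gabrg3 (16 to 64), and the part of depth in their values was not tested.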
